A study of Mus musculus with 10 samples.

Results

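The 10 genes described here, Mdm2, Ccng1, Bax, Bbc3, Trp53inp1, Phlda3, Sesn2, Zmat3, Gdf15 and Perp, are known transcriptional targets of the tumor suppressor p53. They were taken as every array probe that carries one of these gene symbols. That rule gave 18 probes of 8 genes, out of 45281 probes on the array and 19057 genes with a probe. No probe used here carried the symbol Bax or Gdf15, and these 2 genes were not analysed here. Of the 18 probes, 15 passed the filter on dim probes, and all 8 genes kept at least 1 probe. RNA was measured in 10 frozen skin melanomas of C57BL6 mice, 5 of the pigmented group and 5 of the MPNST-like group. MPNST-like tumors are amelanotic and resemble malignant peripheral nerve sheath tumors. All mice of both groups carried BrafV600E, an activating change in a growth kinase, and CDK4R24C, a change that frees the cell cycle kinase Cdk4 from Ink4 inhibitors. Every mouse had tamoxifen on the skin to activate its mutant Braf and later a single dose of DMBA, a carcinogen whose metabolites damage DNA. The sources used here do not name the recombinase that acts on the allele, the age of the mice or whether each tumor came from its own mouse, so p-values measure the spread between these samples. Untreated skin was not analysed here, so every comparison is between the tumor types. Each tumor was hybridized to 1 Illumina array, and each of 2 chips carried tumors of both types. Chip 1 held 4 tumors, the first 2 of each group, and chip 2 held the other 6. Median intensity per array ranged from 79.4 to 93.9, between 17908 and 21581 probes were detected per array, and the number of arrays limits the precision. Melanocyte markers checked the labels: all 9 were lower in the MPNST-like tumors, with a median log2 difference of -5.90, and Sox10 was detected in all 10 tumors. MPNST-like 5 stood apart from the other MPNST-like tumors, with Dct at 14.01 inside the pigmented range of 13.95 to 14.30. For the other 8 markers the groups did not overlap, such as Tyr at 6.44 and Mlana at 9.12 in MPNST-like 5. Its centred melanocyte score was -8e-04, against -4.21 to -1.91 in the other MPNST-like tumors and 2.36 to 2.74 in pigmented tumors. Without MPNST-like 5, the log2 difference was 0.81 for Ccng1 (adjusted p = 0.034) and 0.89 for Perp (adjusted p = 0.068).

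The p53 protein is a transcription factor that is held at a low level by the ubiquitin ligase Mdm2 and is stabilised after DNA damage or oncogene signalling. It then binds pairs of a short DNA element and switches on genes for cell cycle arrest, cell death, repair and its own restraint. Mdm2 and Ccng1 feed back on p53, Trp53inp1 enhances its activity, Bbc3 and Perp promote cell death, Phlda3 and Sesn2 restrain Akt and mTORC1 signalling, and Zmat3 encodes an RNA-binding zinc finger protein. In pigment cells p53 is known for the tanning response to ultraviolet light and for limiting melanoma growth beside mutant Braf. Some of these genes also answer to other factors, such as p63 for Perp and Atf4 for Sesn2.

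Letters like those of the p53 element were looked for in the promoters of the listed genes. RefSeq promoter windows of assembly GRCm38.p6, from 250 bases before to 50 bases after the transcription start, matched 7 of the 10 genes by symbol, with 10 windows in all. A p53 half-site was searched as a core, C and G around 2 letters that are each A or T, with 3 purines before and 3 pyrimidines after it, a pattern that reads alike on both strands. A second pattern was a pair of such cores separated by 6 bases, which can overlap half-sites. The half-site occurred in 8.36% of 32851 promoter windows and the core pair in 7.22%. Of the 7 genes, Mdm2, Ccng1 and Bax held a half-site and Bbc3 held a core pair. A match is a run of letters and not a measured binding site. The windows of Ccng1, Mdm2 and Bbc3 are shown because these are the measured genes with a match, and capitals mark the match.
Ccng1, chr11:40755237-40755536, minus strand: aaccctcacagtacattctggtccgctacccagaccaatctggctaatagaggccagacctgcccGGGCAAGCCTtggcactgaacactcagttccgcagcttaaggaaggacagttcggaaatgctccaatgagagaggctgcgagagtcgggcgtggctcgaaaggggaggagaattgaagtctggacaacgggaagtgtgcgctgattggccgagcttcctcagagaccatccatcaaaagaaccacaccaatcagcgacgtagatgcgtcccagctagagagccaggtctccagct
Mdm2, chr10:117710709-117711008, minus strand: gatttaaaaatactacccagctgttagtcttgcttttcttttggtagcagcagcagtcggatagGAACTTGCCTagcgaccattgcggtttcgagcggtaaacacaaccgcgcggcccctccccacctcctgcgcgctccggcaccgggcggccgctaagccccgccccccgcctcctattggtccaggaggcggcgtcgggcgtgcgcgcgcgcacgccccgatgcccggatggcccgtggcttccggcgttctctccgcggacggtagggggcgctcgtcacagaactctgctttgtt
Bbc3, chr7:16309333-16309632, plus strand: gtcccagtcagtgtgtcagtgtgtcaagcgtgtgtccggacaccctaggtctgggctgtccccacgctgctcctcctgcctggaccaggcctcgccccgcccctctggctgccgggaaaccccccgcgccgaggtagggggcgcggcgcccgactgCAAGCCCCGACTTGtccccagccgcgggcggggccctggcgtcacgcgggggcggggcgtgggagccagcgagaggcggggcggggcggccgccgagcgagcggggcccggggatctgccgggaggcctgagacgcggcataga
The match began 185 bases before the start of Ccng1, 186 before that of Mdm2 and 94 before that of this Bbc3 window. The other Bbc3 windows and those of Phlda3, Sesn2 and Gdf15 held neither pattern.

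The p53 targets did not move as a block between the tumor types. Of the 8 measured genes, Ccng1 and Perp were higher in the MPNST-like tumors and 0 were lower at an adjusted p under 0.05 (limma, Benjamini-Hochberg over 11984 genes), while the other 6 did not pass. That share of higher genes, 2 of 8, stood beside 18.6% of all genes tested and the 0 lower genes beside 20.2%. The 2 calls in either direction stood beside 38.8%, so neither count departs far from the background. The median log2 difference, MPNST-like minus pigmented, was 0.39 over the 8 genes and 0.011 over all genes. The median of the 8 genes was 0.86 after median scaling, but -0.15 in the values normalized by the authors and -0.047 within chip 1 alone. The groups overlapped for every one of the 8 genes, whereas they did not overlap for 25.9% of all genes (12.1% higher and 13.8% lower). Scaling of the arrays moved the split, to 4 higher and 0 lower after median scaling, where the median of all genes was 0.33, and to 0 higher and 1 lower in the values normalized by the authors, where it was -0.22. Of the 15 kept probes fitted one by one, 2 were higher and 0 lower, beside 15.4% and 18.7% of all 22480 kept probes, or 34.1% in either direction. Within chip 1 alone 0 of the 8 genes passed, beside 2.13% higher, 1.13% lower and 3.25% in either direction over all genes. Within chip 2 alone Mdm2, Ccng1, Trp53inp1 and Perp were higher and 0 were lower, beside 13.3%, 14.9% and 28.2%. The sign of the difference was opposite in the chips for Mdm2 and Trp53inp1, 2 of 8 genes, and for 19.6% of all genes. In bulk tumors, fewer cells of a type and less RNA per cell cannot be told apart.

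**Figure D1:**
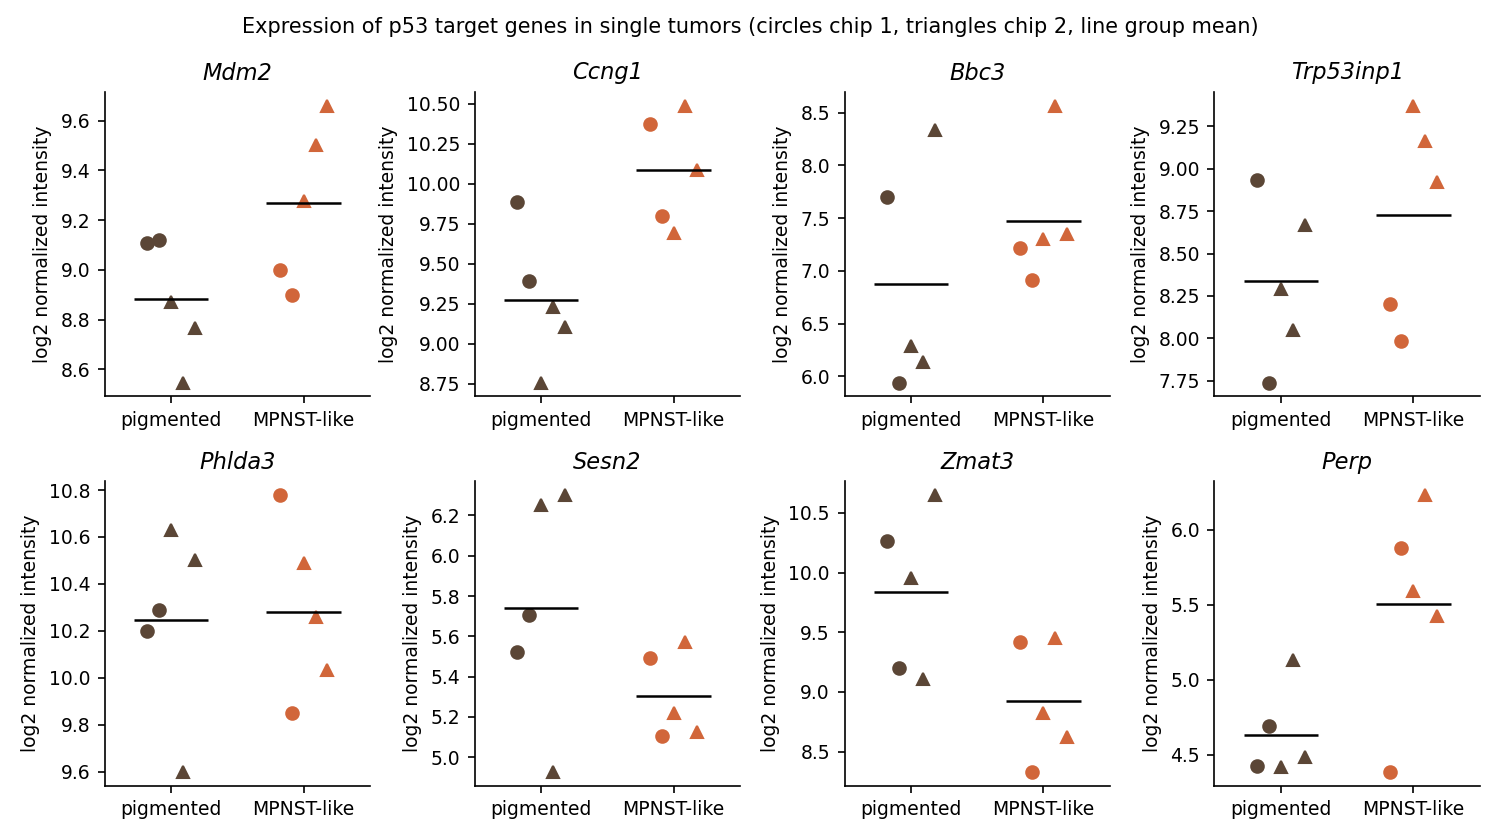
Log2 normalized intensity of the probe that stands for each of 8 p53 target genes, 1 point per tumor, with circles for chip 1, triangles for chip 2 and a line at the group mean (n = 5 per group). The vertical axes differ between genes and do not start at 0. The groups overlap in all 8 panels, Ccng1 and Perp are higher on average in the MPNST-like tumors, and Zmat3 and Sesn2 are lower on average without passing the test.

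Mdm2, the ligase that marks p53 for degradation, did not pass between the groups. Its log2 level was 9.11, 9.12, 8.87, 8.55 and 8.77 in pigmented 1 to 5. In MPNST-like 1 to 5 it was 9.002, 8.90, 9.28, 9.50 and 9.66. The 3 MPNST-like tumors of chip 2 lay above all pigmented tumors, and those of chip 1 lay among them. The log2 difference was 0.39 (SE 0.19, 95% interval -0.025 to 0.80, adjusted p = 0.12), a 1.31-fold higher mean. Within chip 1 it was -0.16 (SE 0.28, adjusted p = 0.79), and within chip 2 it was 0.75 (SE 0.19, adjusted p = 0.028). The difference between the chips, 0.92, had an unadjusted p of 0.011 in the interaction fit, added after seeing the data, and an adjusted p of 0.997. A second kept probe gave a smaller log2 difference of 0.18 (adjusted p = 0.48 over all kept probes). The remaining Mdm2 probe was detected in 0 pigmented and 1 MPNST-like tumor and was left out.

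Ccng1, which encodes cyclin G1, a partner of a phosphatase that acts on Mdm2, was 1.76-fold higher in the MPNST-like tumors. On the log2 scale it stood at 9.89, 9.39, 8.76, 9.23 and 9.10 in pigmented 1 to 5. The MPNST-like tumors 1 to 5 stood at 10.37, 9.80, 9.69, 10.49 and 10.09. All 5 MPNST-like tumors lay above the pigmented median, and 3 lay above the highest pigmented tumor, pigmented 1. The log2 difference was 0.81 (SE 0.23, 95% interval 0.30 to 1.32, adjusted p = 0.017), with 0.45 within chip 1 (SE 0.37, adjusted p = 0.56) and 1.06 within chip 2 (SE 0.26, adjusted p = 0.024). The 3 Ccng1 probes, each detected in all 10 tumors, disagreed in size. The brightest gave the value above, and the others gave 0.041 (SE 0.20, adjusted p = 0.89) and 0.22 (SE 0.20, adjusted p = 0.44). Across the dimmer pair, pigmented tumors lay between 6.71 and 7.95 and MPNST-like tumors between 6.88 and 8.32. With the mean of the 3 probes, the log2 difference was 0.36 (adjusted p = 0.15), so the call rests on 1 probe. The call also ended in the values normalized by the authors (0.20, adjusted p = 0.48). It was lost as well without pigmented 4, MPNST-like 2 and MPNST-like 5, the tumors with the most skeletal muscle RNA. In that fit the log2 difference was not smaller, at 0.90, but its SE was larger, at 0.31 (adjusted p = 0.063). The centred muscle marker score of those tumors was 3.35, 3.71 and 3.92. Muscle RNA was also present in others, since the log2 level of Acta1, the actin of skeletal muscle, was 9.64, 10.26 and 10.13 in pigmented 1 to 3, against 4.31 in pigmented 5 and 12.82 in pigmented 4.

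Trp53inp1 (chr4:11156441-11174379, GRCm38.p6), a stress-induced nuclear protein gene that enhances p53 activity and autophagy, did not pass. Tumor by tumor, its log2 level was 8.93, 7.74, 8.29, 8.05 and 8.67 in pigmented 1 to 5. In MPNST-like 1 to 5 it was 8.20, 7.98, 9.37, 9.16 and 8.92. As for Mdm2, the MPNST-like tumors of chip 2 stood above the pigmented tumors of their chip, and those of chip 1 did not. The log2 difference was 0.39 (SE 0.31, 95% interval -0.29 to 1.08, adjusted p = 0.34), with -0.24 within chip 1 (SE 0.48, adjusted p = 0.82) and 0.82 within chip 2 (SE 0.23, adjusted p = 0.037). Leaving out 1 tumor moved the difference by over 1.5 times, to 0.24 without pigmented 2 and to 0.23 without MPNST-like 3. The difference between the chips was 1.06 (unadjusted p = 0.061, adjusted p = 0.997). Both Trp53inp1 probes gave the same size, 0.39 and 0.39. Over all genes the chip interaction was called for 0 genes (0%) at an adjusted p under 0.05 and for 435 genes (3.63%) at an unadjusted p under 0.05 in limma. With 2 against 2 and 3 against 3 tumors, this says little on whether differences changed between chips.

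**Figure D2:**
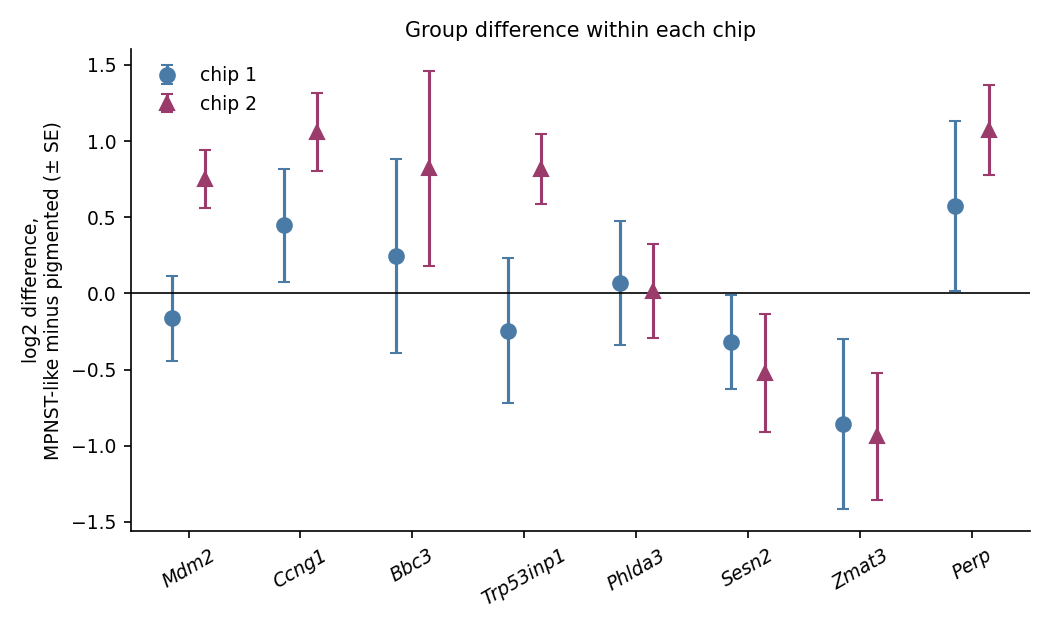
Log2 difference, MPNST-like minus pigmented, within chip 1 (2 against 2 tumors, circles) and chip 2 (3 against 3 tumors, triangles) for 8 p53 target genes, with bars of 1 SE. Mdm2 and Trp53inp1 are near or below 0 on chip 1 and at 0.75 and 0.82 on chip 2, while Zmat3 is at -0.86 and -0.94.

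The cell death genes Bbc3 and Perp varied more within the groups than most genes tested, as did most of the other listed genes. Bbc3 encodes Puma, which frees Bax and Bak to open the mitochondrial outer membrane. It stood on the log2 scale at 7.70, 5.94, 6.29, 6.14 and 8.33 in pigmented 1 to 5. The MPNST-like tumors 1 to 5 stood at 7.21, 6.91, 7.31, 8.57 and 7.35. Pigmented 1 and 5 were high and the other 3 pigmented tumors low, a 5.25-fold range, and MPNST-like 4 was the highest tumor. The within-group SD of Bbc3, 0.88, exceeded that of 92.8% of all genes tested, and the SD of Perp, 0.54, exceeded that of 79.0%. High spread was not particular to these genes, since the share was 82.6% for Zmat3 and 79.8% for Trp53inp1. It was 68.4% for Sesn2, 60.8% for Phlda3 and 60.5% for Ccng1, and the SD of Mdm2, 0.28, exceeded that of 36.1%. The log2 difference of Bbc3 was 0.59 (SE 0.48, 95% interval -0.48 to 1.66, adjusted p = 0.36), with 0.24 within chip 1 and 0.82 within chip 2. It was 0.35 without pigmented 2, 0.95 without pigmented 5 and 0.32 without MPNST-like 4. The other Bbc3 probes were near background, one detected in 4 of 5 tumors of each group (-0.015) and one in 1 pigmented and 2 MPNST-like tumors (0.027).

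Perp (chr10:18845071-18857073, GRCm38.p6) encodes a membrane protein of desmosomes, the junctions of keratinocytes, that was first known as a p53 effector in cell death. The log2 level of Perp was 4.43, 4.69, 4.42, 5.13 and 4.48 in pigmented 1 to 5. In MPNST-like 1 to 5 it was 4.39, 5.88, 5.59, 6.23 and 5.43. MPNST-like 2 to 5 lay above all pigmented tumors, and MPNST-like 1 was the lowest of all 10. The log2 difference was 0.87 (SE 0.31, 95% interval 0.20 to 1.55, adjusted p = 0.043), with 0.57 within chip 1 (SE 0.56, adjusted p = 0.63) and 1.07 within chip 2 (SE 0.30, adjusted p = 0.036). Its only probe was dim, detected in 2 of 5 pigmented and 4 of 5 MPNST-like tumors, so the size is limited by the background. The difference was 0.32 with no background correction (adjusted p = 0.061). Leaving out 1 tumor ended the call for 8 of the 10 tumors, with adjusted p from 0.061 to 0.098 without pigmented 1, 2, 3 or 5 or MPNST-like 2, 3, 4 or 5, and the call held without pigmented 4 (0.032) or MPNST-like 1 (0.0025).

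Perp was highest in the tumors with the most keratinocyte marker RNA. The keratinocyte score, the mean log2 level of 10 measured markers of 13 listed around each gene's mean, was -1.37, -0.23, -1.14, 1.07 and -1.82 in pigmented 1 to 5. It was -1.41, 1.09, 1.37, 1.26 and 1.18 in MPNST-like 1 to 5. The 5 tumors with a score above 1, pigmented 4 among them, were the 5 with the highest Perp, and MPNST-like 1, with a low score, had the lowest Perp. The summed intensity of the markers spanned 2345 to 23094 across pigmented tumors and 4097 to 31784 across MPNST-like tumors. Of the 10 markers, 6 were detected in all pigmented and 8 in all MPNST-like tumors, and 0 were undetected throughout a group. With the keratinocyte score as a covariate the Perp difference was 0.33 (SE 0.23, adjusted p = 0.34). Because the score was higher in most MPNST-like tumors, this fit cannot separate the score from the group. Macrophage markers ordered the tumors alike: the same 5 tumors had the highest macrophage scores, 1.63, 1.05, 0.64 and 1.37 in MPNST-like 2 to 5 and 0.38 in pigmented 4, against 0.063 in MPNST-like 1. Neither the part of keratinocyte RNA nor that of macrophage RNA in the Perp difference was tested. Trp63, which encodes p63, an epidermal relative of p53 that switches on Perp, did not pass (log2 difference 1.62, SE 0.73, adjusted p = 0.099), and it is named here after its values were seen.

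**Figure D3:**
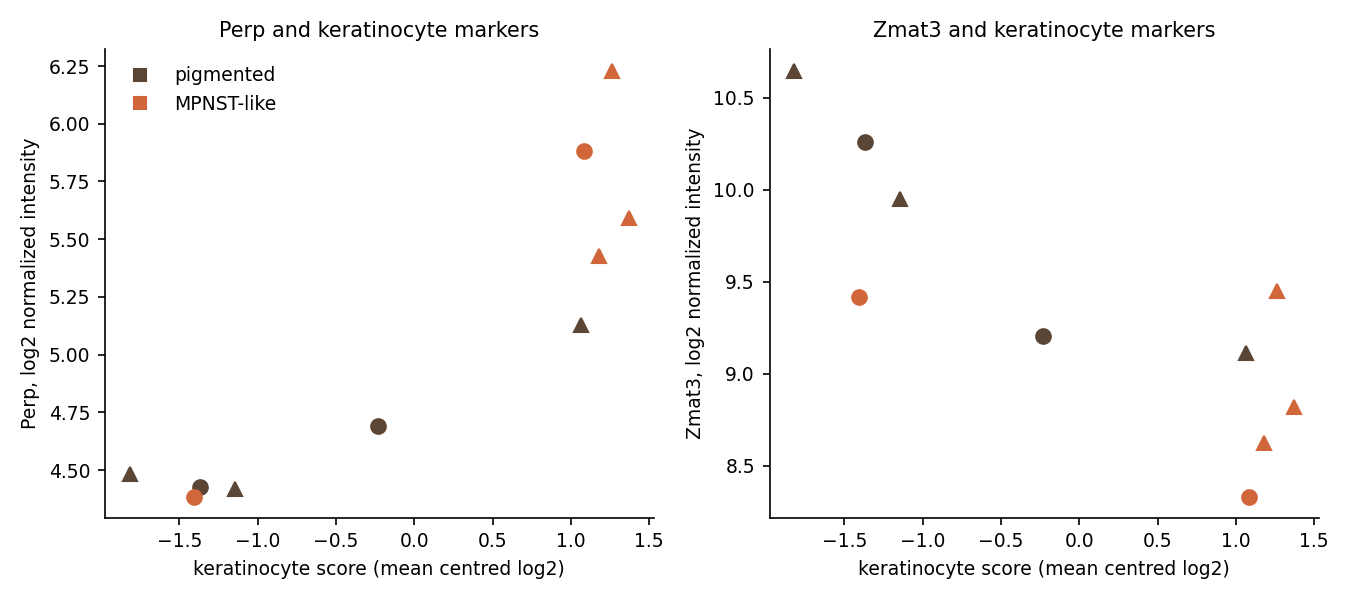
Log2 normalized intensity of Perp (left) and Zmat3 (right) against the keratinocyte score, the mean centred log2 level of 10 markers, with 1 point per tumor, brown for pigmented, orange for MPNST-like, circles for chip 1 and triangles for chip 2. The 5 tumors with a score above 1 have the highest Perp, from 5.13 to 6.23, and Zmat3 between 8.33 and 9.45.

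The growth-restraining targets differed little or fell short of the test. Phlda3, a competitor of Akt for membrane lipids, was at 10.20, 10.29, 10.63, 9.60 and 10.50 on the log2 scale in pigmented 1 to 5. The MPNST-like tumors 1 to 5 stood at 10.78, 9.85, 10.49, 10.26 and 10.03. The groups covered nearly the same range, and the log2 difference was 0.037 (SE 0.23, 95% interval -0.47 to 0.55, adjusted p = 0.92), with 0.069 within chip 1 and 0.016 within chip 2. The second Phlda3 probe gave 0.030. Sesn2, a leucine sensor that restrains mTORC1, was at 5.52, 5.71, 6.25, 4.93 and 6.30 in pigmented 1 to 5. In MPNST-like 1 to 5 it was 5.49, 5.10, 5.22, 5.57 and 5.13. All 5 MPNST-like tumors were below the pigmented median, but pigmented 4 was the lowest tumor. The log2 difference of Sesn2 was -0.44 (SE 0.25, 95% interval -0.999 to 0.12, adjusted p = 0.19), with -0.32 within chip 1 and -0.52 within chip 2. Without pigmented 4 the log2 difference was -0.64 (adjusted p = 0.032). It was -0.10 with the keratinocyte score as a covariate (adjusted p = 0.81) and -0.19 with no background correction (adjusted p = 0.20). The part of keratinocyte RNA in the Sesn2 difference was not tested. After median scaling the sign turned, at 0.056. The other 2 Sesn2 probes were detected in at most 2 tumors of a group and were left out.

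Zmat3 (chr3:32334792-32365665, GRCm38.p6), whose RNA-binding product shapes splicing and stability of other transcripts, stood just outside the threshold in the lower direction. The log2 level of Zmat3 was 10.26, 9.20, 9.95, 9.11 and 10.65 in pigmented 1 to 5. The MPNST-like tumors 1 to 5 stood at 9.41, 8.33, 8.82, 9.45 and 8.62. MPNST-like 2, 3 and 5 lay below all pigmented tumors, and MPNST-like 1 and 4 lay among them. The log2 difference was -0.91 (SE 0.33, 95% interval -1.64 to -0.17, adjusted p = 0.051), with -0.86 within chip 1 (adjusted p = 0.46) and -0.94 within chip 2 (adjusted p = 0.13). The side of the threshold changed in 9 of 26 alternatives, among them the values normalized by the authors (-1.51, adjusted p = 0.0061) and the fits without pigmented 2 (adjusted p = 0.030), pigmented 4 (0.025), MPNST-like 1 (0.039) or MPNST-like 4 (0.045). Zmat3 was highest in pigmented 1, 3 and 5, the 3 pigmented tumors with the lowest keratinocyte scores. These 3 tumors also had the highest melanocyte scores, 2.74, 2.60 and 2.49, against 2.43 and 2.36 in pigmented 2 and 4. MPNST-like 1, also with a low keratinocyte score (-1.41), was below those 3 tumors at 9.41. With the keratinocyte score as a covariate the log2 difference of Zmat3 was -0.39 (SE 0.30, adjusted p = 0.38). Neither the part of keratinocyte RNA nor that of melanocyte RNA in the Zmat3 difference was tested.

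**Figure D4:**
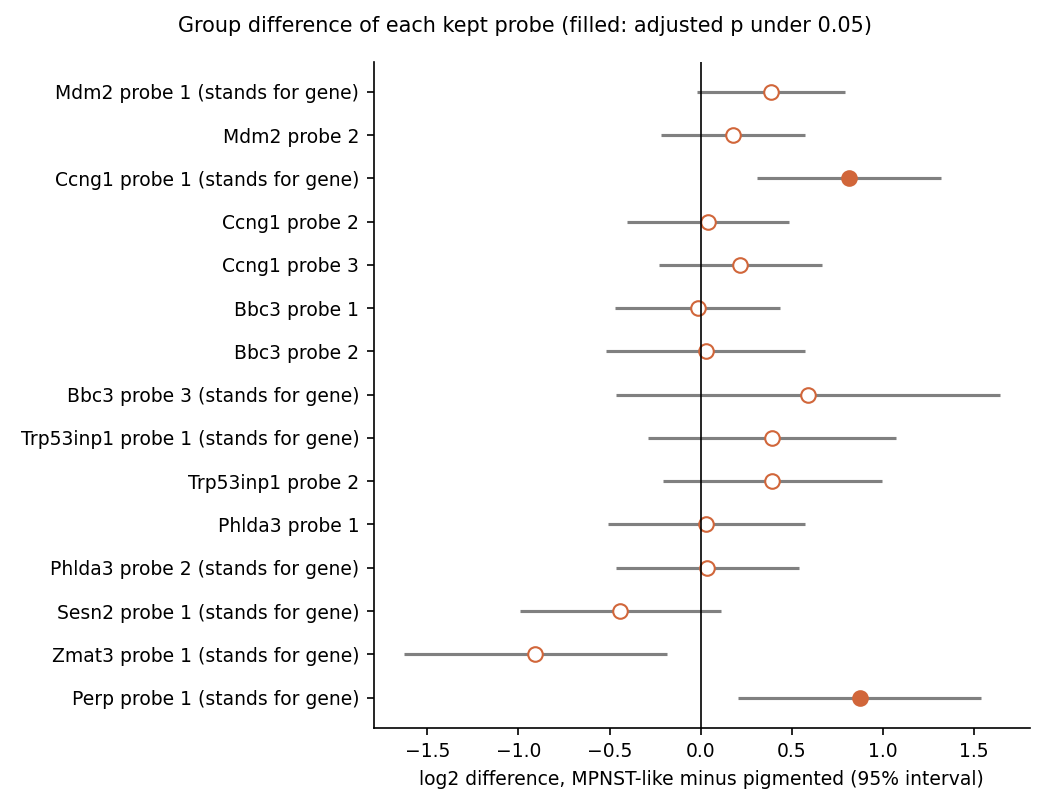
Log2 difference, MPNST-like minus pigmented, of the 15 kept probes of 8 p53 target genes with 95% intervals from limma, filled where the adjusted p over all kept probes is under 0.05. One of 3 Ccng1 probes and the Perp probe are filled, and the other Ccng1 probes lie at 0.041 and 0.22.

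Profiles across the 10 tumors were compared by the root mean square difference of centred log2 values, over 11976 other genes. The closest profile to Perp was that of Pla2g4f, a phospholipase gene (0.13, against a median of 0.79 over all other genes), followed by Ttc39a (0.20). Thnsl2 (0.16) and Prag1 (0.22) were closest to Zmat3. Mrps22, a mitochondrial ribosomal protein gene (0.17), and Ttl, a tubulin tyrosine ligase gene (0.20), were closest to Ccng1. For Mdm2 they were Ss18l2 (0.15) and Rspo3 (0.15), and for Trp53inp1 they were Il17rd (0.24) and Shprh (0.27). Closest to Bbc3 were Atp10b (0.28) and Sub1 (0.44), the largest such distances among the listed genes. The measure is not scaled by a gene's own spread, and the median distance of Bbc3 over all other genes, 0.94, was also the largest. Phlda3 was closest to Nthl1 and Pkmyt1 (0.15 each), and Sesn2 to Ccdc166 and Ggn (0.17 each).

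Other known p53 targets went both ways. The list shares Sfn with the keratinocyte markers and Apaf1 with the Bcl2 family and apoptosome list. Of 27 measured genes of 30 listed, 6 were higher, 3 lower and 18 did not pass, which is 22.2% and 11.1% beside 18.6% and 20.2% of all genes, with a median log2 difference of 0.22. Sesn1, a sestrin related to Sesn2, was 3.35-fold higher (log2 difference 1.74, SE 0.32, adjusted p = 0.0016). It was at 7.45, 6.40, 7.62, 7.82 and 7.70 in pigmented 1 to 5, and at 8.33, 9.07, 9.73, 9.10 and 9.49 in MPNST-like 1 to 5, so its groups did not overlap. Of its 3 probes 2 passed, and the remaining one was at 4.7e-04. The death receptor gene Fas was 3.35-fold higher (1.74, SE 0.31, adjusted p = 0.0015), detected in 4 of 5 pigmented tumors. Gadd45a, a DNA damage response gene, was at 1.55 (SE 0.31, adjusted p = 0.0026), and Dram1, an autophagy gene, at 1.68 (SE 0.47, adjusted p = 0.016). Trp53i11 rose by 0.86 (SE 0.27, adjusted p = 0.029), a call lost in 12 of 26 alternatives, among them those without pigmented 1 or 3 or MPNST-like 1, 2 or 3 (adjusted p from 0.053 to 0.068). The kinase gene Plk2 fell by 1.44 (SE 0.31, adjusted p = 0.0040), the membrane protein gene Ninj1 fell by 1.26 (SE 0.19, adjusted p = 6.0e-04) and the repair gene Xpc fell by 0.54 (SE 0.16, adjusted p = 0.024). Cdkn1a, which encodes the arrest protein p21, did not pass (-0.54, SE 0.38, adjusted p = 0.29), with -1.21 within chip 1 and -0.089 within chip 2. It passed as lower in the values normalized by the authors (-1.28, adjusted p = 0.031). Its log2 level was 11.07, 11.94, 10.92, 9.92 and 11.44 in pigmented 1 to 5, and 10.98, 9.61, 10.74, 11.06 and 10.20 in MPNST-like 1 to 5. All 9 called genes had the same sign within both chips, but they were called on these same tumors, which makes such a match likely. Over all genes the sign was opposite in the chips for 19.6%. The Xpc difference was 0.036 after median scaling, and its call was also lost without pigmented 1 or 5 or MPNST-like 2 or 5. Of 2 Xpc probes, at -0.54 and -0.30, 1 passed. Macrophage and fibroblast markers moved with the groups, 8 of 9 and 7 of 7 higher. Their summed intensities were 1510 to 9108 and 1287 to 16399 in pigmented, and 5891 to 15683 and 28464 to 44742 in MPNST-like tumors, and their part in these differences was not tested.

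Of 15 measured genes of 20 that encode p53 relatives and regulators, 0 were higher and 5 were lower (33.3%, beside 20.2% of all genes), with a median log2 difference of -0.14. The gene of p53 itself was not analysed here. Cdkn2a, whose Arf product inhibits Mdm2, fell by 1.37 (SE 0.40, adjusted p = 0.019). It was at 10.14, 10.37, 9.65, 9.35 and 9.82 in pigmented 1 to 5, and at 9.95, 7.39, 8.30, 8.49 and 8.34 in MPNST-like 1 to 5, so that MPNST-like 1 lay among the pigmented tumors. The Cdkn2a difference was -1.59 within chip 1 (SE 0.87, adjusted p = 0.38) and -1.23 within chip 2 (SE 0.19, adjusted p = 0.0072). It was -0.80 with the keratinocyte score as a covariate (adjusted p = 0.15) and -0.94 after median scaling (adjusted p = 0.096). The p53-binding protein gene Ppp1r13b fell by 1.21 (SE 0.18, adjusted p = 5.8e-04), the ubiquitin ligase gene Rchy1 fell by 0.61 (SE 0.13, adjusted p = 0.0037) and the checkpoint kinase gene Chek2 fell by 0.59 (SE 0.16, adjusted p = 0.011). Only 1 of 3 Chek2 probes passed, another was at -0.011, and the call was lost in 6 of 26 alternatives. Of 2 Rchy1 probes, at -0.64 and -0.61, 1 passed, and of 3 Cdkn2a probes, from -1.52 to -1.04, 2 passed. Whether the Cdkn2a probes read the transcript of Arf was not tested. Usp7, a deubiquitinase of Mdm2 and p53, fell by 0.44 (SE 0.14, adjusted p = 0.026), with 0.018 after median scaling and a probe of the opposite sign at 0.15, and its call was lost in 11 alternatives, among them those without pigmented 3 or 5 or MPNST-like 3, 4 or 5. Mdm4, the partner of Mdm2, did not pass (0.25, SE 0.15, adjusted p = 0.20) and was detected in 1 pigmented and 4 MPNST-like tumors.

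Of 16 measured Bcl2 family and apoptosome genes, through which Bax and Bbc3 act, 1 was higher and 3 lower (6.25% and 18.8%, beside 18.6% and 20.2% of all genes), with a median log2 difference of -0.25. The survival gene Bcl2l1 fell by 1.42 (SE 0.34, adjusted p = 0.0075), and all 3 of its probes passed. Bak1, which opens the mitochondrial outer membrane as Bax does, fell by 0.86 (SE 0.23, adjusted p = 0.012), and the death-promoting gene Bad fell by 0.44 (SE 0.15, adjusted p = 0.042). The Bad difference was 0.022 after median scaling, and its call was lost in 13 alternatives, among them those without any 1 tumor other than pigmented 4 or MPNST-like 1. Bik, another death-promoting gene, rose by 1.37 (SE 0.37, adjusted p = 0.013). Of 11 integrated stress response genes, a pathway that also switches on Sesn2, 2 were higher and 1 lower (18.2% and 9.09%, beside the same 18.6% and 20.2%), with a median of 0.24. Nupr1, a stress-induced chromatin protein gene, was 7.75-fold higher (2.95, SE 0.63, adjusted p = 0.0041). Atf4, the central factor of that response, rose by 0.73 (SE 0.26, adjusted p = 0.047), and Sesn3 fell by 0.72 (SE 0.18, adjusted p = 0.0090). The Atf4 call was lost in 16 of 26 alternatives, among them those without any 1 tumor other than pigmented 2 or MPNST-like 1. Of 2 Atf4 probes, at 0.40 and 0.73, 1 passed.

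**Figure D5:**
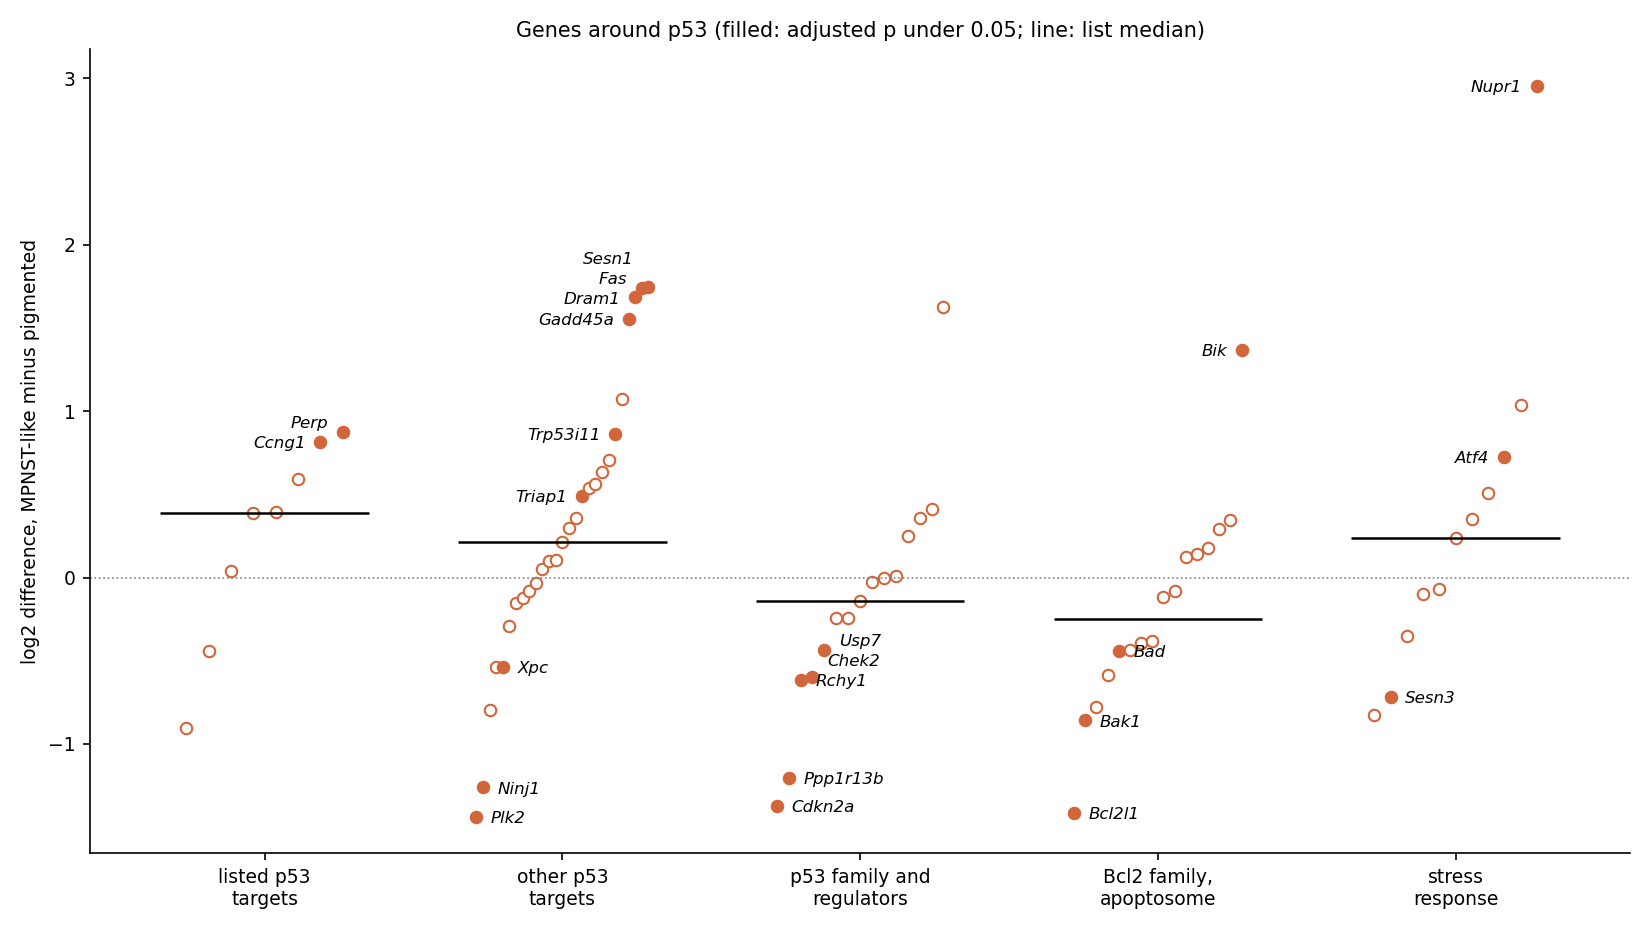
Log2 difference, MPNST-like minus pigmented, of each measured gene in 5 lists around p53, 1 point per gene ordered by size within its list, filled where the adjusted p is under 0.05, with a line at the list median. Filled points lie on both sides of 0 except among the 8 listed p53 targets, where Ccng1 and Perp are filled, and the regulators, where 5 filled points lie below 0.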

How the data were processed

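Total RNA of 10 tumors was hybridized to single-colour Illumina mouse arrays. Per the file headers, the deposited scanner table gives each probe an intensity and a detection p-value on each array. A second deposited table holds log2 values normalized by the authors with a method not given in the sources used here, and served as an alternative. Intensities were background-corrected with neqc (normexp, offset 16) and quantile-normalized in limma 3.58.1 (R 4.3.3). Probes were kept where at least 3 arrays detected them (p-value under 0.05). Of all probes, 34885 had 1 gene symbol, and 10396 had several or none. The brightest kept probe stood for each gene. Groups were compared with lmFit and eBayes and Benjamini-Hochberg adjustment over all 11984 genes or all 22480 probes. The fit was tested on simulated data.

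The members, gene lists and alternatives were chosen with earlier results of these data known. Named genes are all members, Mdm4, Cdkn2a, Cdkn1a, up to 5 higher and 5 lower genes of each list that passed, and the 2 closest profiles of each member. Trp63 and marker genes are named outside that rule. Replicate numbers are names in accession order. The 26 alternatives cover background correction, scaling, the authors' values, filters, probe choice, chip, variance model and tumors left out. Figures were drawn with matplotlib 3.10.9.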

Additional observations from a re-analysis of the deposited data

Results flagged for a closer look

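Of 30 sets of 5 values, 15 probes in 2 groups, 3 held a tumor far from the other 4 of its group by Dixon's criterion, which chance meets in about 1 of 20 sets, and all 3 were Bbc3 probes. On the brightest Bbc3 probe, MPNST-like 4 stood at a log2 level of 8.57, with the next tumor at 7.35. On a dim Bbc3 probe pigmented 5 stood at 5.45, with the next tumor at 4.39. On the other dim Bbc3 probe pigmented 2 stood at 4.27, with the next tumor at 4.77. The dim probes were near background in most tumors.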

How the results depend on the processing

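The direction of Ccng1, Bbc3, Zmat3 and Perp held in all 26 alternatives. Log2 differences ran from 0.20 to 1.23 for Ccng1, 0.20 to 1.11 for Bbc3, -1.51 to -0.39 for Zmat3 and 0.32 to 1.28 for Perp, and the call was lost in 5 alternatives for Ccng1 and in 15 for Perp. Mdm2 turned to -0.19 and Trp53inp1 to -0.10 in the authors' values, and to -0.16 and -0.24 within chip 1. Phlda3 turned to -0.66 in the authors' values, to -0.014, -0.087 and -0.12 without MPNST-like 3, MPNST-like 1 or pigmented 4 (range -0.12 to 0.15 when leaving out 1 tumor), and to -0.25 without both pigmented 4 and MPNST-like 1, an alternative added after seeing the data. After median scaling Sesn2 turned to 0.056, Usp7 to 0.018, Xpc to 0.036 and Bad to 0.022. The cause of these turns was not tested.

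Counts of higher and lower genes are 2 and 0 for the p53 targets, 0 and 5 for regulators, 6 and 3 for other targets, 1 and 3 for the Bcl2 list, 2 and 1 for stress genes, and 2228 and 2418 for all genes. Those that moved by over 1.5 times follow by setting. Median scaling gave 4 higher targets, 3 higher and 1 lower regulators, 10 higher other targets, 2 higher and 0 lower Bcl2 genes, 4 higher and 0 lower stress genes, and 3847 and 902 of all genes. The authors' values gave 0 higher and 1 lower targets, 6 lower other targets, 8 lower Bcl2 genes, 1 higher stress gene, and 1220 and 3817 of all genes. Chip 1 alone gave 0 higher targets, 255 and 135 of all genes, and 0 calls in either direction in each list. Chip 2 alone gave 4 higher targets, 3 lower regulators, 1 lower other target and 0 lower stress genes. The keratinocyte covariate gave 1 higher target, 2 lower regulators, 1 lower Bcl2 gene, 1 higher and 0 lower stress genes, and 1452 and 1485 of all genes. Without the 3 tumors with the most muscle RNA there were 0 higher targets, 2 lower regulators, 0 higher and 1 lower Bcl2 genes and 1 higher stress gene. Without pigmented 4 and MPNST-like 1 there were 1 higher and 2 lower targets and 1 higher regulator. Cyclic loess and the mean of probes each gave 1 higher target, 1 higher regulator and 1 higher stress gene. No filter gave 1 higher target and 1 higher stress gene, and no background correction 1 higher target. Normexp by maximum likelihood, the stricter filter and eBayes with trend each gave 1 lower target. Leaving out 1 tumor gave 1 to 2 higher and 0 to 2 lower targets, 0 to 1 and 4 to 5 regulators, 4 to 8 and 2 to 3 other targets, 1 to 1 and 2 to 3 Bcl2 genes, 1 to 3 and 1 to 2 stress genes, and 1841 to 2375 and 2018 to 2620 of all genes. No paired analysis was possible because the replicate numbers follow accession order and pair no tumors. Dim probes, such as those of Perp and Sesn2, limit what can be said of size.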
